A study of Arabidopsis thaliana with 6 samples.

Results

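AT1G26250, an extensin-like gene, AT4G12500, a lipid transfer protein gene, and AT3G47380, of the pectin methylesterase inhibitor (PMEI) family, encode proteins of the cell surface. They are 3 of the 13264 Arabidopsis thaliana genes that an Affymetrix ATH1 probe set measured alone. They were picked because their levels differed widely between the seedling groups in an earlier analysis of the same arrays, so their differences are given as a description, without a test. Each gene had 1 probe set of its own and 0 probe sets shared with other genes.

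The groups were the SUB1A line, Col-0 seedlings carrying 35S:FLAG-SUB1A, the SUB1C line, Col-0 seedlings carrying 35S:FLAG-SUB1C, and WT, Col-0 seedlings labelled wild type. SUB1A and SUB1C are ethylene response factors of rice, here with a FLAG tag. The 35S promoter that drives both transgenes is active in most tissues. All seedlings were 7 days old, whole and untreated, and were collected at midday. Each group had 2 arrays from 2 biological replicates. The sources used here do not say how many independent lines carried each transgene, and no line with an empty vector is listed, so an effect of a transgene cannot be told apart from other differences between lines. Arrays of a group correlated at 0.998 to 0.999 over all probe sets, against 0.989 to 0.996 for arrays of different groups, and probe sets are no independent replicates.

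Extensins are hydroxyproline-rich glycoproteins that are cross-linked into the plant cell wall. Lipid transfer proteins are small secreted proteins with conserved cysteines that bind lipids, and they are known from the surface layers of seedlings and from defence. Those of the EARLI1-like type, to which AT4G12500 belongs, carry a proline-rich stretch before the cysteine-rich domain. PMEI proteins bind pectin methylesterases, the wall enzymes that remove methyl groups from pectin, and block them.

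The extensin-like gene AT1G26250 had log2 values of 5.30 and 5.28 in SUB1A seedlings, 6.64 and 7.08 in SUB1C seedlings, and 7.98 and 7.35 in WT seedlings. The arrays of the groups did not overlap, and both SUB1C arrays lay between the others. The SUB1A mean was lower than the WT mean by a log2 difference of -2.38 ± 0.20 (standard error, SE, of the linear model, n = 2 arrays per group here and below), which is 5.19-fold. The SUB1C mean differed from WT by -0.81 ± 0.20, or 1.75-fold. Here the nearest arrays of SUB1C and WT were 0.27 apart, less than the 0.63 between the WT replicates, and the difference was -0.49 without WT replicate 1. The SUB1A values lay a little above a log2 level of 5, under which a group mean was read as near background, so the difference may be compressed. In these whole-seedling samples, fewer cells of a type and less RNA per cell cannot be told apart.

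The lipid transfer protein gene AT4G12500 had log2 values of 8.88 and 8.79 in SUB1A seedlings, 9.99 and 10.18 in SUB1C seedlings, and 10.71 and 11.15 in WT seedlings. The order of the groups was that of AT1G26250, again with no overlap. The SUB1A mean was 4.27-fold lower than the WT mean, a log2 difference of -2.10 ± 0.13. The SUB1C mean differed from WT by -0.85 ± 0.13, or 1.80-fold, and here the gap of 0.53 between the nearest arrays was larger than the 0.44 between the WT replicates. Between the lines the difference was -1.25 ± 0.13 for AT4G12500 and -1.57 ± 0.20 for AT1G26250, SUB1A minus SUB1C.

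The PMEI family gene AT3G47380 ran the other way. Its log2 values were 10.98 and 10.93 in SUB1A seedlings, 8.72 and 8.68 in SUB1C seedlings, and 8.23 and 8.38 in WT seedlings. The SUB1A arrays stood far above the rest, and the SUB1C arrays stood a little above WT, with nearest arrays 0.31 apart and WT replicates 0.15 apart. The SUB1A mean was 6.28-fold higher than the WT mean, a log2 difference of 2.65 ± 0.07, and 4.76-fold higher than the SUB1C mean, a difference of 2.25 ± 0.07. The SUB1C mean exceeded WT by 0.40 ± 0.07, or 1.32-fold. The replicate standard deviation of AT3G47380 was 0.03 in SUB1A, 0.03 in SUB1C and 0.10 in WT, and that of AT1G26250 was 0.02, 0.31 and 0.44 in the same groups.

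**Figure D1:**
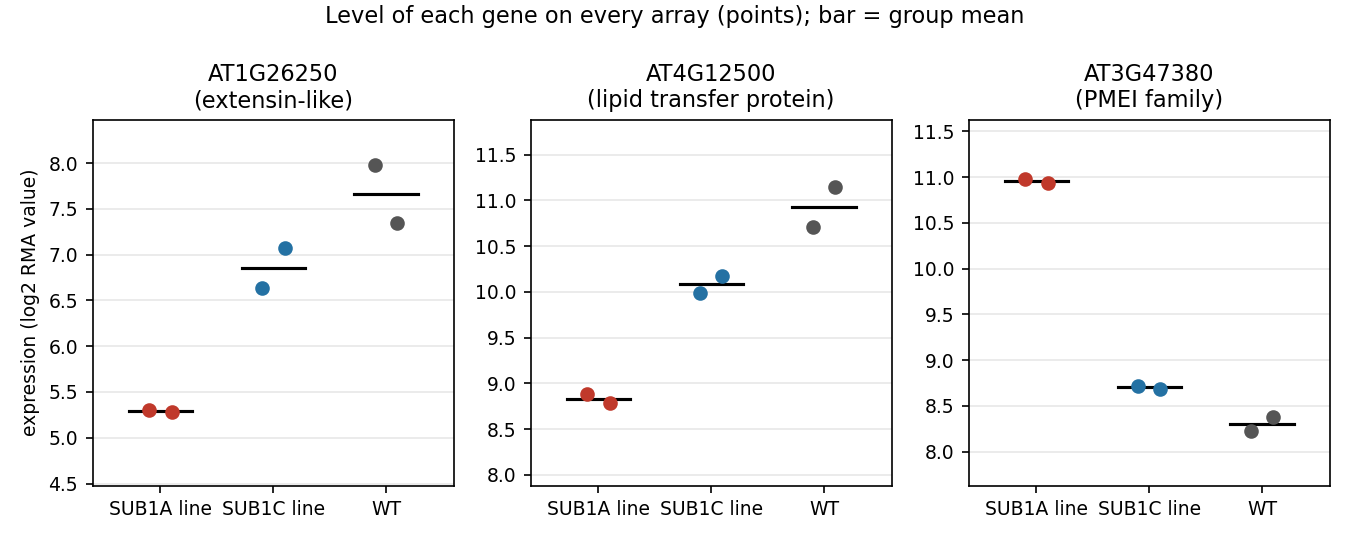
Log2 RMA values (vertical axes, each spanning 4 log2 units) of the 3 genes on every array (points) with group means (bars), for SUB1A, SUB1C and WT from left to right. The SUB1C arrays lie between the others for each gene, nearer to WT, and AT3G47380 is the only one of these 3 with its highest values in SUB1A.

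Ranked by the SUB1A minus WT difference among 13264 genes, AT1G26250 had the third lowest value, AT4G12500 the fourth lowest and AT3G47380 the sixth highest. In the SUB1C minus WT comparison AT4G12500 ranked 5 and AT1G26250 ranked 10 from the lowest difference, while AT3G47380 ranked 255 from the highest. Arrays without overlap in the order SUB1A below SUB1C below WT were found for 6.38% of the 13264 genes, and in the opposite order for 5.38%, and nothing is read from the 3 genes' own order, since they were chosen for it. Across the 6 arrays Pearson's r was 0.94 between AT1G26250 and AT4G12500, -0.96 between AT1G26250 and AT3G47380, and -0.94 between AT4G12500 and AT3G47380. These are descriptions over arrays that fall into 3 groups. Between WT replicates AT1G26250 and AT4G12500 moved in opposite directions, at -0.63 and 0.44 for replicate 2 minus replicate 1. Between replicates of the lines they shared a sign, at -0.02 and -0.10 in SUB1A and 0.44 and 0.19 in SUB1C.

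The genes whose 6 log2 values, centred on their own mean, lay nearest to each of the 3 were then named. They were chosen by pattern, so no test is given. Nearest to AT1G26250 were AT2G15020, with a root mean square distance of 0.27 log2 units and r = 0.99, AT3G54040 (0.29), the expansin gene EXPA8 (0.30) and the cold-regulated gene COR15B (0.31). Expansins loosen the cell wall, and COR15B encodes a chloroplast protein induced by cold. EXPA8 was also nearest to AT4G12500, with a distance of 0.26 and r = 0.96, followed by AT5G37990 (0.27), AT5G22580 (0.28) and AT5G62280 (0.31). EXPA8 had log2 values of 9.41 and 9.49 in SUB1A seedlings, 10.86 and 10.76 in SUB1C seedlings, and 11.38 and 11.18 in WT seedlings.

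AT3G47380 had closer neighbours in pattern. AT3G17520 lay at a distance of 0.08 with r = 1.00 over 6 arrays, and AT5G03350 lay at 0.09. AT1G35710 lay at 0.12 and LEA18, a late embryogenesis abundant protein gene, at 0.16. The WT mean of LEA18 was 4.84, under the log2 level of 5 read as near background. Those of AT3G17520 and AT1G35710, at 5.20 and 5.52, lay little above that level. Differences of these genes from WT may be compressed. AT3G17520 had log2 values of 7.74 and 7.66 in SUB1A seedlings, 5.65 and 5.60 in SUB1C seedlings, and 5.16 and 5.24 in WT seedlings. Its differences were 2.50 for SUB1A minus WT and 0.43 for SUB1C minus WT, beside 2.65 and 0.40 for AT3G47380. Over the 6 arrays r was above 0.95 for 308 of 13261 genes with AT3G47380, for 332 with AT1G26250 and for 197 with AT4G12500.

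**Figure D2:**
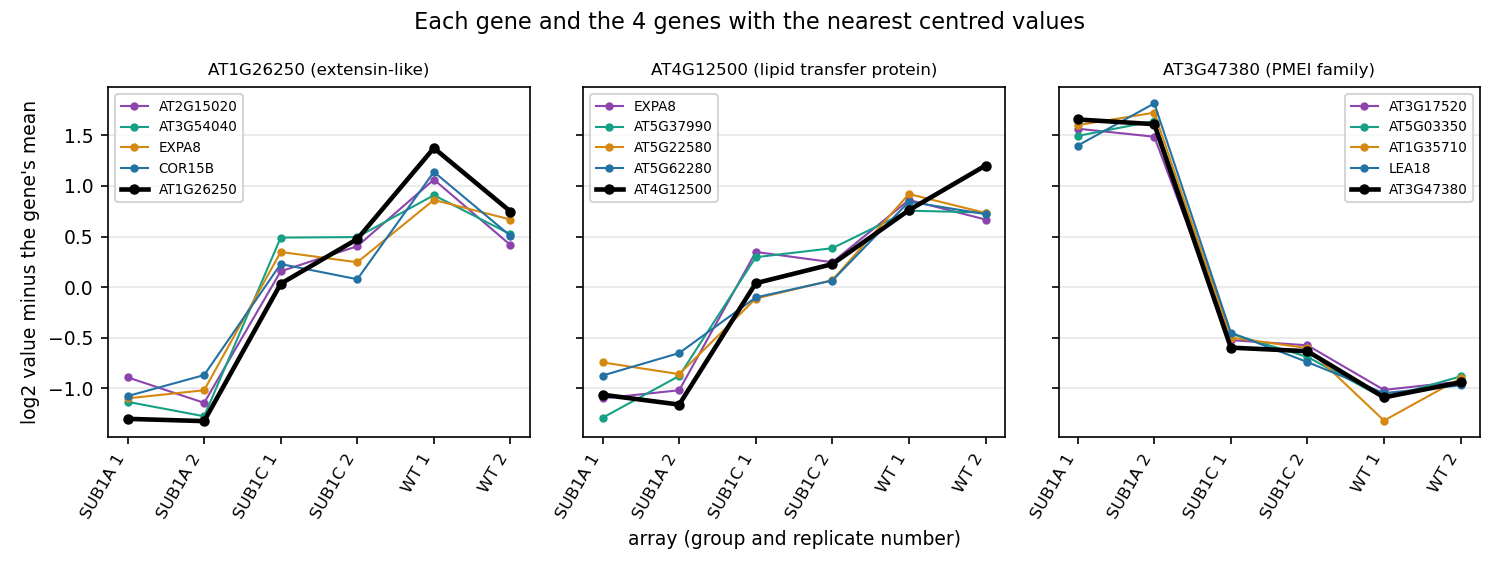
Log2 values minus each gene's own mean (vertical axis) on the 6 arrays (horizontal axis, replicate numbers after the group) for each of the 3 genes (black) and the 4 genes nearest to it (colours), with lines only to guide the eye. The black and coloured points around AT3G47380 lie closest, at distances of 0.08 to 0.16 log2 units, against 0.26 to 0.31 for the other panels.

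The families of the 3 genes were examined next, with the 3 genes left out, to show what other members did. Here a gene was called, and is said to rise or fall, where limma gave a Benjamini-Hochberg adjusted p under 0.05 over all probe sets. Of the 13264 genes, 17.8% were called in the SUB1A minus WT comparison, 8.13% higher and 9.63% lower. In the SUB1C minus WT comparison 4.19% were called, 2.42% higher and 1.77% lower. In the SUB1A minus SUB1C comparison 10.3% were called, 4.67% higher and 5.63% lower. The median log2 difference of all 13264 genes was between -0.00 and 0.01 in these comparisons.

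The extensin list was not split by protein type. Of its 18 measured genes, 0 rose and 2 fell in SUB1A seedlings against WT, 11.1% called beside 17.8% of all genes. The median difference was -0.03. With a replicate block or trended moderation 1 of the 18 was called higher and 2 lower. AT1G23720 and AT3G28550, at 0.30 ± 0.10 and 0.22 ± 0.07, were not called in the main fit (limma adjusted p = 0.061 and 0.0598). AT1G49490, AT3G19020, AT4G08370, AT4G33970 and AT5G25550 lay near background, with all group means under a log2 level of 5. AT3G22800 had log2 values of 6.49 and 6.38 in SUB1A seedlings and 7.20 and 6.91 in WT seedlings, and fell by 0.62 ± 0.10 (limma adjusted p = 0.00395). AT4G18670 fell by 0.46 ± 0.09 (limma adjusted p = 0.0107), and its call ended without SUB1A replicate 2 (adjusted p = 0.0588) or WT replicate 1 (adjusted p = 0.069). The family count of 2 became 1 without SUB1A replicate 2. The differences of the 18 genes ran from -0.62 to 0.30, beside -2.38 for AT1G26250, which was chosen for its wide difference.

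In SUB1C seedlings 4 of the 18 extensin genes rose against WT and 0 fell, 22.2% called beside 4.19% of all genes, with a median difference of 0.10. AT1G26250 itself stood below WT there, by the -0.81 given above. AT1G23720 had log2 values of 9.46 and 9.43 in SUB1C seedlings and 8.66 and 8.41 in WT seedlings, and rose by 0.91 ± 0.10 (limma adjusted p = 0.00255). AT3G28550 rose by 0.74 ± 0.07, with 7.55 and 7.65 in SUB1C seedlings and 6.87 and 6.84 in WT seedlings. HRGP1, a hydroxyproline-rich glycoprotein gene, rose by 0.75 ± 0.14, and AT5G06630 by 0.60 ± 0.10. Of these 4 genes 3, all but AT3G28550, were read by probe sets of the x type, which can cross-hybridise with related sequences, and the part of cross-hybridisation in these values was not tested. The count was 2 without either SUB1C array and 6 without WT replicate 1. The call of HRGP1 ended without either SUB1C array (limma adjusted p = 0.138 and 0.113) and without WT replicate 2 (0.0651), and that of AT5G06630 ended without either SUB1C array (0.0882 and 0.0925).

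Of the root markers measured, 2 of 3 also rose in SUB1C seedlings, where 4.19% of all genes were called. The same 2 rose in SUB1A seedlings, where 17.8% of all genes were called. There 0 extensin genes rose in the main fit, and 1 with a replicate block or trended moderation. Only 3 of 13 listed root and root hair markers were measured, and their mean log2 level was 9.91 to 9.93 on the SUB1A arrays, 10.18 to 10.27 on the SUB1C arrays and 9.64 to 9.73 on the WT arrays. EXPA7 and EXPA18, expansin genes of root hairs, rose in SUB1C seedlings by 0.78 ± 0.08 and 0.75 ± 0.08 and in SUB1A seedlings by 0.29 ± 0.08 each, while PYK10, a beta-glucosidase gene of roots, differed by 0.09 ± 0.06 and 0.11 ± 0.06 without a call. Of 20 leaf photosynthesis markers 3 were measured, with mean log2 levels of 13.78 to 13.83 on the SUB1A arrays, 13.94 to 13.98 on the SUB1C arrays and 13.99 to 14.07 on the WT arrays. LHCB4.2, of the light-harvesting complex, and SBPASE, of carbon fixation, fell in SUB1A seedlings by 0.35 ± 0.07 and 0.29 ± 0.07 (limma adjusted p = 0.0112 and 0.0234). These are 2 of 3 called, beside 17.8% of all genes. In SUB1C seedlings 0 of 3 were called, beside 4.19% of all genes. Both sets lay well above the array minimum of 3.76 to 3.85, and 0 of 13 seed markers were measured. The part of organ proportions in the results was not tested.

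Between the lines, 8 of 18 extensin genes were lower in SUB1A than in SUB1C seedlings and 0 were higher, 44.4% called beside 10.3% of all genes, with a median of -0.15. AT3G54580 differed by -0.67 ± 0.15, AT5G06630 and HRGP1 by -0.66 ± 0.10 and -0.66 ± 0.14, AT1G23720 by -0.61 ± 0.10 and AT3G28550 by -0.52 ± 0.07, SUB1A minus SUB1C. Of the 8 genes 4 were read by x-type probe sets. Leaving out SUB1C replicate 2 gave a count of 3, and leaving out SUB1C replicate 1 or SUB1A replicate 2 gave 5. AT3G54580 lost its call without SUB1A replicate 1 or either SUB1C array (limma adjusted p = 0.107 to 0.139), and HRGP1 lost it without SUB1A replicate 2 or either SUB1C array (0.0861 to 0.102). The differences of AT3G22800 and AT4G18670 were -0.61 ± 0.10 and -0.51 ± 0.09, and without SUB1C replicate 2 their adjusted p was 0.0645 and 0.0837, and that of AT4G18670 was 0.0582 without SUB1A replicate 2.

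Among 8 measured EARLI1-like genes other than AT4G12500, 0 rose and 1 fell in SUB1A seedlings against WT, with a median of -0.08 and a called share of 12.5% beside 17.8% of all genes. AT4G22470, named after its values were seen, had log2 values of 10.91 and 10.83 in SUB1A seedlings and 9.20 and 10.47 in WT seedlings, a difference of 1.04 ± 0.32 without a call (limma adjusted p = 0.0516). With a replicate block, median centring or trended moderation 1 of the 8 genes was called higher and 1 lower. The fall was that of AT1G62510, which had log2 values of 10.04 and 10.06 in SUB1A seedlings, 11.35 and 11.21 in SUB1C seedlings, and 11.50 and 11.28 in WT seedlings. It fell by 1.33 ± 0.09 against WT (limma adjusted p = 4.77e-05) and was lower than in SUB1C seedlings by a difference of -1.22 ± 0.09, while SUB1C minus WT was -0.11 ± 0.09 without a call. The count was 2 without SUB1A replicate 1 or WT replicate 2 and 3 without WT replicate 1. In SUB1C seedlings 1 of 8 rose, AT4G22460 by 0.71 ± 0.10, beside 4.19% of all genes called, a call that ended without SUB1C replicate 1 (limma adjusted p = 0.0573), leaving 0. Without either WT array 2 genes were called there. Between the lines 3 of 8 were lower in SUB1A and 0 higher, 37.5% called beside 10.3% of all genes. A fit of the SUB1A and SUB1C arrays alone called 1 higher and 3 lower. Besides AT1G62510, the lower genes of the main fit were AT4G22460 at -0.59 ± 0.10 and AT2G10940 at -0.30 ± 0.07. AT2G10940 lost its call without any 1 of the SUB1A or SUB1C arrays, with differences of -0.37 to -0.22.

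Of 7 measured genes of other lipid transfer proteins, 3 rose and 0 fell in SUB1A seedlings against WT, 42.9% called beside 17.8% of all genes, with a median of 0.10. AT1G05450 and AT2G15325 lay near background, with all group means under a log2 level of 5. AT2G18370 had log2 values of 10.37 and 10.41 in SUB1A seedlings and 9.99 and 9.75 in WT seedlings, and rose by 0.52 ± 0.08 (limma adjusted p = 0.00328). AT2G48130 rose by 0.44 ± 0.09 and AT5G01870 by 0.24 ± 0.06. AT2G48130 lost its call without SUB1A replicate 1 (limma adjusted p = 0.068) or WT replicate 2 (0.0534), and AT5G01870 lost it without any 1 array except WT replicate 2 (adjusted p = 0.0609 to 0.141) and in a fit of the SUB1A and WT arrays alone (0.0609), so that the count was 1 without SUB1A replicate 1. In SUB1C seedlings 1 of 7 rose, AT2G48130 by 0.71 ± 0.09, and 0 fell, beside 4.19% of all genes called. That call ended without SUB1C replicate 1 (limma adjusted p = 0.0505), leaving 0. Between the lines 1 of 7 was higher in SUB1A, AT2G18370 by 0.37 ± 0.08, and 0 lower, beside 10.3% of all genes called, and that call ended without any 1 of the SUB1A or SUB1C arrays (limma adjusted p = 0.0841 to 0.13). In the main fit the called genes of this family differed in sign from AT4G12500. With a replicate block 1 gene was higher and 1 lower in SUB1A than in SUB1C seedlings, and the lower one shared its sign.

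The PMEI family list held 14 measured genes besides AT3G47380. In SUB1A seedlings 1 of them rose and 6 fell against WT, that is 7 of 14 called, beside 17.8% of all genes, with a median of -0.08. The rise was that of AT4G25250, which had log2 values of 7.16 and 7.22 in SUB1A seedlings, 7.45 and 7.30 in SUB1C seedlings, and 6.43 and 6.26 in WT seedlings. AT4G25250 rose by 0.85 ± 0.08 in SUB1A seedlings (limma adjusted p = 0.000303) and by 1.03 ± 0.08 in SUB1C seedlings (limma adjusted p = 0.000871), and the lines differed by -0.18 ± 0.08 without a call. AT3G62820 fell by 0.75 ± 0.09 and AT1G62770 by 0.56 ± 0.07 in SUB1A seedlings. The 14 genes ran from -0.75 to 0.85 there, beside 2.65 for AT3G47380.

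In SUB1C seedlings 2 of 14 PMEI family genes rose and 2 fell against WT, 28.6% called beside 4.19% of all genes, with a median of -0.01. AT1G62770 had opposite calls in the lines: its log2 values were 7.19 and 7.16 in SUB1A seedlings, 8.14 and 8.24 in SUB1C seedlings, and 7.79 and 7.68 in WT seedlings. It rose by 0.45 ± 0.07 in SUB1C seedlings (limma adjusted p = 0.0108), and the difference between the lines was -1.01 ± 0.07 (limma adjusted p = 9.03e-05). Its call against WT in SUB1C ended without either SUB1C array (limma adjusted p = 0.0645 and 0.0804) or WT replicate 2 (0.0525). AT5G62360 fell by 0.54 ± 0.08 in SUB1C seedlings, a call that ended without SUB1C replicate 2 (adjusted p = 0.0728) or WT replicate 1 (0.0604), and it was higher in SUB1A than in SUB1C seedlings by 0.65 ± 0.08. AT3G62820 fell by 0.41 ± 0.09 in SUB1C seedlings and lost that call without any 1 of the SUB1C or WT arrays (limma adjusted p = 0.0926 to 0.182). The count of 4 was 2 without SUB1C replicate 1 or either WT array and 1 without SUB1C replicate 2.

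Between the lines 1 of 14 PMEI family genes was higher in SUB1A and 4 were lower, 35.7% called beside 10.3% of all genes, with a median of -0.13. AT4G25260 differed by -0.43 ± 0.07 (limma adjusted p = 0.00629), and by -0.38 with an adjusted p of 0.0625 without SUB1C replicate 1. AT3G62820 differed by -0.34 ± 0.09, and its call ended without any array except SUB1A replicate 2 (limma adjusted p = 0.0502 to 0.19). The count was 3 without SUB1A replicate 1 or SUB1C replicate 2 and 2 without SUB1C replicate 1. AT4G25260 also fell by 0.46 ± 0.07 in SUB1A seedlings against WT (limma adjusted p = 0.00288).

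Pectin methylesterases are the enzymes that PMEI proteins bind. Of 23 such genes on the list used here, 10 were measured, and the list may leave out others. In SUB1A seedlings 3 rose and 3 fell against WT, that is 6 of 10 called, beside 17.8% of all genes, with a median of -0.04. PME61, also named PME35, had log2 values of 6.15 and 6.42 in SUB1A seedlings, 7.51 and 7.35 in SUB1C seedlings, and 8.13 and 7.72 in WT seedlings. PME61 fell by 1.64 ± 0.14 against WT (limma adjusted p = 0.000171) and was lower than in SUB1C seedlings by a difference of -1.14 ± 0.14. PME41, listed as ATPMEPCRB, rose by 1.05 ± 0.25 with 10.06 and 10.28 in SUB1A seedlings and 8.63 and 9.61 in WT seedlings. Its difference was 0.56 without WT replicate 1, and its call ended without either SUB1A array (limma adjusted p = 0.0619 and 0.103) and with robust moderation (0.0525). AT1G02810 rose by 0.69 ± 0.12 (limma adjusted p = 0.00445), and the family count was 3 without either SUB1A array.

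Of the 10 pectin methylesterase genes 2 rose and 1 fell in SUB1C seedlings against WT, that is 3 of 10 called beside 4.19% of all genes, with a median of -0.03. AT5G04960 rose by 0.70 ± 0.09, with log2 values of 8.56 and 8.39 in SUB1C seedlings and 7.85 and 7.70 in WT seedlings, and differed by -0.73 ± 0.09 between the lines. AT1G02810 rose by 0.52 ± 0.12 and AT1G23200 fell by 0.48 ± 0.08. The call of AT5G04960 ended without SUB1C replicate 1 (limma adjusted p = 0.052), as did that of AT1G23200 (0.144), which also ended without WT replicate 2 (0.0723). AT1G02810 lost its call without any 1 array (limma adjusted p = 0.0513 to 0.215) and in a fit of the SUB1C and WT arrays alone (0.0587) or with a replicate block (0.0617), and 0 genes of the family were called without SUB1C replicate 1. Between the lines 0 of 10 were called higher and 3 lower in SUB1A, beside 10.3% of all genes called, while 7 of 10 differences were positive and their median was 0.09. With a replicate block or trended moderation 2 were called higher and 3 lower. The third lower gene was AT3G49220 at -0.30 ± 0.07, whose call ended without any 1 of the SUB1A or SUB1C arrays (limma adjusted p = 0.0574 to 0.2).

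**Figure D3:**
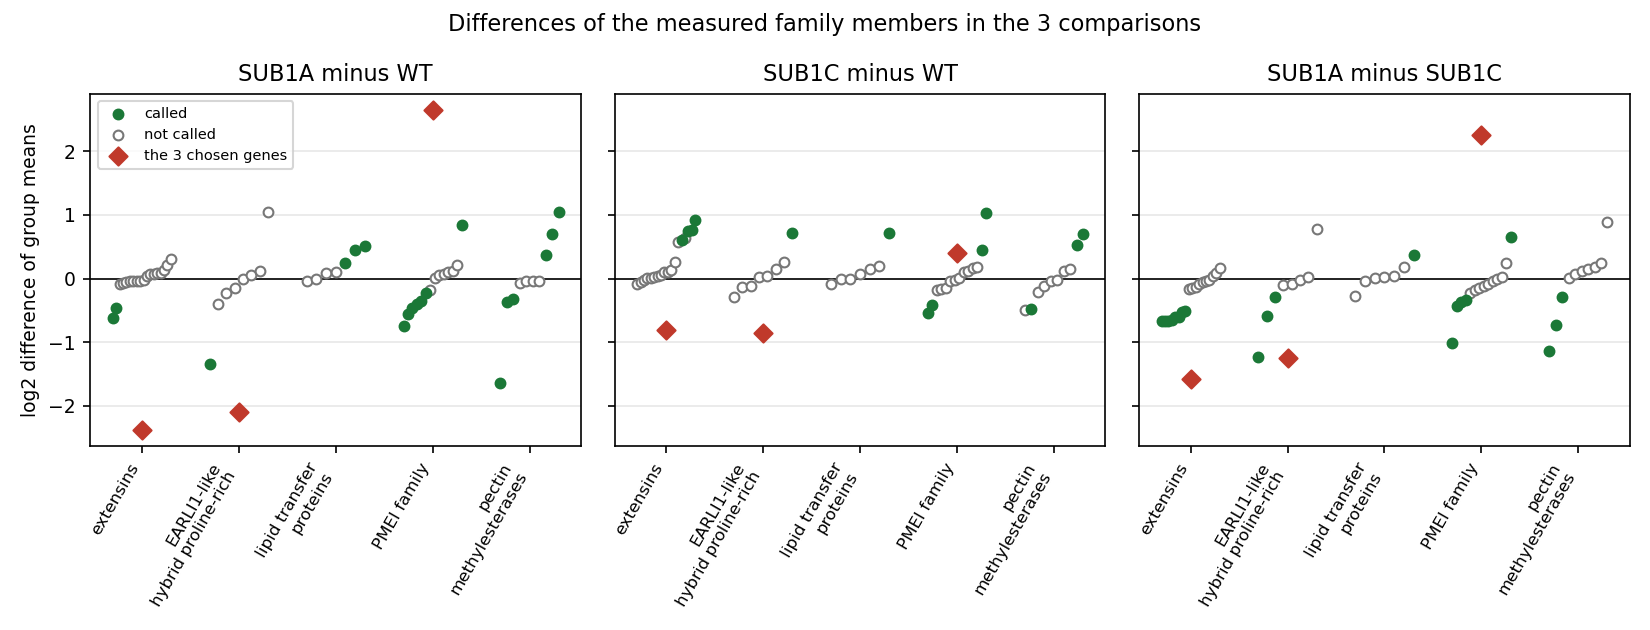
Log2 difference of group means (vertical axis) for each measured gene on 5 family lists (horizontal axis) in the 3 comparisons. Filled points are genes called at limma adjusted p under 0.05, and open points are the others. Diamonds are the 3 chosen genes, which carry no test. The diamonds stand at -2.38, -2.10 and 2.65 for SUB1A minus WT. The 3 genes were chosen for such differences, so nothing is read from their distance to their families. For SUB1C minus WT 15 of 18 extensin points lie above 0, where the median of all genes was -0.002. Of the 18 points, 4 come from x-type probe sets, and some lie near background.

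The genes next to each of the 3 along the chromosome were taken from the RefSeq gene order, 3 on each side. AT1G26240, the extensin gene beside AT1G26250 on chromosome 1, had log2 values of 5.54 and 5.38 in SUB1A seedlings, 5.44 and 5.76 in SUB1C seedlings, and 5.48 and 5.18 in WT seedlings. The arrays overlapped, and its differences from WT of 0.13 ± 0.13 in SUB1A and 0.27 ± 0.13 in SUB1C were not called (limma adjusted p = 0.553 and 0.285). Its mean log2 levels of 5.46, 5.60 and 5.33 in SUB1A, SUB1C and WT lay little above 5, so a fall may be compressed. AT1G26270 differed by -0.01 ± 0.06 and 0.09 ± 0.06 without a call.

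AT4G12500 lies in a run of EARLI1-like genes on chromosome 4. AT4G12490 had log2 values of 11.50 and 11.38 in SUB1A seedlings, 11.54 and 11.54 in SUB1C seedlings, and 11.34 and 12.33 in WT seedlings, so WT replicate 2 stood alone, and the differences from WT of -0.40 ± 0.25 and -0.30 ± 0.25 were not called. The probe set shared by AT4G12510 and AT4G12520, the next genes on the other side, ran opposite to AT4G12500. It had log2 values of 12.04 and 11.92 in SUB1A seedlings, 12.32 and 12.26 in SUB1C seedlings, and 11.50 and 11.36 in WT seedlings. It rose by 0.55 ± 0.07 in SUB1A (limma adjusted p = 0.0014) and by 0.86 ± 0.07 in SUB1C (limma adjusted p = 0.00124), and it cannot tell its 2 genes apart. This probe set was named after its values were seen. AT4G12530 lay near background, at mean log2 levels of 4.90, 4.88 and 4.84 in SUB1A, SUB1C and WT.

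Beside AT3G47380 on chromosome 3, AT3G47370 differed from WT by 0.22 ± 0.09 in SUB1A and 0.05 ± 0.09 in SUB1C, without a call. AT3G47400 had log2 values of 7.04 and 7.10 in SUB1A seedlings, 6.92 and 7.15 in SUB1C seedlings, and 6.78 and 6.61 in WT seedlings. It rose by 0.37 ± 0.09 in SUB1A (limma adjusted p = 0.0234), and the 0.33 ± 0.09 in SUB1C was not called (limma adjusted p = 0.0797). Of the 18 neighbours of the 3 genes, 6 were measured by a probe set of their own. Of these, 1 was called in SUB1A against WT, where 17.8% of all genes were called, and 0 in SUB1C against WT, where 4.19% were.

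**Figure D4:**
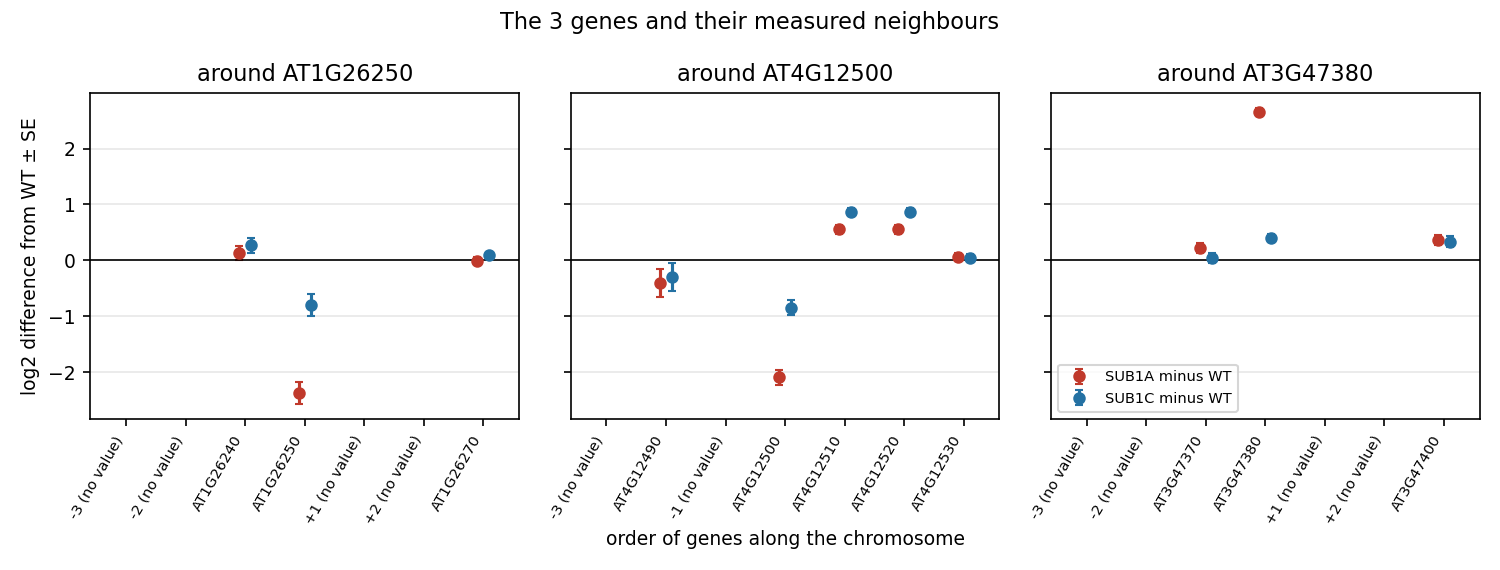
Log2 difference from WT with the SE of the fit (vertical axis) for each of the 3 genes, in the centre of its panel, and its measured neighbours in chromosome order (horizontal axis), in red for SUB1A and blue for SUB1C. The 2 points of AT4G12510 and AT4G12520 come from 1 shared probe set, and its differences of 0.55 and 0.86 are opposite in sign to those of AT4G12500.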

How the data were processed

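Levels are log2 values per probe set that the authors deposited, for which the submitters' processing notes name RMA, with no version. The labels' protocols state 100 ng of RNA per array. Of 22810 probe sets, 64 controls were left out. The probe table named 1 gene with a locus for 13415, several for 503 and none for 8730. The brightest probe set represented each gene, giving 13264 genes. Loci came through RefSeq gene IDs. Groups came from the titles.

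All 22746 probe sets on all 6 arrays were fitted with limma 3.58.1 in R 4.3.3 (lmFit, eBayes; 3 residual and 5.37 prior degrees of freedom), two-sided, with Benjamini-Hochberg adjustment. The fit was tested on simulated data. Array number limits the precision. The labels give biological replicates.

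The 3 genes and all lists were chosen with earlier results of these data known. Family lists are locus codes plus 18 extensin, 6 pectin methylesterase and 3 lipid transfer protein genes added by their RefSeq names. The lists may leave out members of a family, and they were not split by protein type. Named genes were the 3 called members per family and comparison with the largest change, the 4 nearest in pattern and the 3 neighbours per side. Comparisons of protein or promoter sequence were not made here. Alternatives were a replicate block, the 2 compared groups alone, quantile normalization, median centring, a filter at mean log2 5, trended or robust moderation, each array left out, and other ways of counting probe sets.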

Additional observations from a re-analysis of the deposited data

How the results depend on the processing

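Quantile normalization or median centring moved the 18 log2 differences of the 3 genes by at most 0.02, and the other settings on all arrays leave a difference of means unchanged by construction. Leaving out 1 array gave, for SUB1A minus WT, -2.69 to -2.06 for AT1G26250, -2.32 to -1.87 for AT4G12500 and 2.58 to 2.73 for AT3G47380. For SUB1C minus WT it gave -1.12 to -0.49, -1.07 to -0.63 and 0.33 to 0.47, and for SUB1A minus SUB1C -1.79 to -1.35, -1.34 to -1.15 and 2.23 to 2.28. No gene of the 3 had a further probe set, so averaging probe sets gave no other value. Leaving out arrays gave 2701 to 3961 called probe sets for SUB1A minus WT, 191 to 882 for SUB1C minus WT and 1078 to 3026 for SUB1A minus SUB1C, against 4606, 1071 and 2742 with all arrays. Counts of called family genes then ran, for SUB1A minus WT, from 1 to 2 for extensins, 1 to 3 for EARLI1-like genes, 1 to 2 for lipid transfer proteins, 5 to 7 for PMEI genes and 3 to 6 for pectin methylesterases. For SUB1C minus WT they ran from 2 to 6, 0 to 2, 0 to 1, 1 to 4 and 0 to 3, and for SUB1A minus SUB1C from 3 to 8, 2 to 4, 0 to 1, 2 to 5 and 2 to 4. Fewer arrays leave fewer degrees of freedom, and a lone array is assumed to vary like the other groups. Of 135 family counts under the other settings, 126 stayed within 1.5 times. The EARLI1-like count for SUB1A minus WT was 2 with a replicate block, median centring or trended moderation (1 higher and 1 lower), 2 with quantile normalization (0 higher) and 3 with several-gene probe sets, against 1, and for SUB1C minus WT it was 4 with those, against 1. For SUB1A minus SUB1C the lipid transfer protein count was 2 with a replicate block (1 higher and 1 lower), against 1. The pectin methylesterase count there was 5 with a replicate block or trended moderation (2 higher and 3 lower), against 3. The cause was not tested. Same-numbered replicates had correlations of their deviations of 0.02, -0.01 and 0.04, so the numbers were not taken to pair the arrays.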

Other observations

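Several-gene probe sets of the EARLI1-like family were listed after their values were seen. The probe set shared by AT5G46900 and AT5G46890 had log2 values of 11.58 and 11.68 in SUB1A seedlings, 11.82 and 11.78 in SUB1C seedlings, and 10.90 and 11.04 in WT seedlings, and rose in both lines, by 0.66 ± 0.07 in SUB1A (limma adjusted p = 0.000584) and 0.83 ± 0.07 in SUB1C (limma adjusted p = 0.00131). The probe set shared by AT4G15165 and AT4G15160 rose in SUB1C by 0.32 ± 0.07 (limma adjusted p = 0.0386), and its 0.17 ± 0.07 in SUB1A was not called. All 3 several-gene probe sets of this family, with that of AT4G12510 and AT4G12520, rose in SUB1C. There 645 of all 22746 probe sets were called higher. The probe set shared by the extensin genes AT4G08410 and AT4G08400 was not called in either comparison with WT.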
